A study of Arabidopsis thaliana with 12 samples.

Results

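The response of 7 genes that act in chemical or protein defence was followed in young rosette leaves of Arabidopsis thaliana carrying a mutation that damages the cuticle. They were chosen by name from the defence genes that the study discusses, as enzymes, a chitinase and a protease inhibitor, and each is read by 1 probe set of the ATH1 array, so they make up 7 of the 22746 probe sets tested. The genes are PAD3 (At3g26830, probe set 258277_at, chromosome 3), ELI3 (At4g37990, 252984_at, chromosome 4), BCB (At5g20230, 246099_at, chromosome 5), the peroxidase At5g64120 (247327_at, chromosome 5), the chitinase At2g43620 (260556_at, chromosome 2), ATTI1 (At2g43510, 260551_at, chromosome 2) and SS3 (At1g74000, 260335_at, chromosome 1).

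The mutants were bdg (allele bdg-2, a small deletion in an exon of BODYGUARD), fdh (allele fdh-3940, a small insertion in an exon of FIDDLEHEAD) and lcr (allele lcr-3P77, an insertion in the 5′ UTR of LACERATA), and they were compared with wild type (WT) Columbia-0. Each genotype had 3 arrays, which the labels call biological replicates, and each array held RNA from leaves of 15 pooled plants, 2 mm to 1 cm long, harvested at 5.5 weeks of age. All plants grew with 8 h of light and 16 h of darkness at 20 °C by day and 18 °C by night. Each mutant was represented by a single allele, and the 3 comparisons with WT used the same 3 WT arrays. The study asked which genes respond when the cuticle is impaired.

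The cuticle is the layer of cutin and wax that seals the epidermis of the shoot. Plants answer attack and damage with small antimicrobial molecules, with enzymes that strengthen their own walls, with enzymes that break down fungal walls and with inhibitors of foreign proteases. PAD3 is the cytochrome P450 CYP71B15, which carries out the last step in the synthesis of camalexin, the main phytoalexin of Arabidopsis. ELI3 is an elicitor-activated gene of the cinnamyl alcohol dehydrogenase family, and BCB is a blue copper protein. At5g64120 is a class III peroxidase, also called PRX71, which acts in the cell wall. ATTI1 is a small cysteine-rich trypsin inhibitor related to defensins, and SS3 is a strictosidine synthase-like gene, named after an alkaloid enzyme of other plants.

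All values are log2 expression values of probe sets, normalised by the authors with GCRMA, and 1 unit is a doubling of the signal. Levels are compared only within a probe set. The medians of the 12 arrays lay between 4.56 and 4.70, and a value under 4.56 was not shown to be above background. Rubisco activase (RCA), the only photosynthetic leaf marker of 14 with a named probe set, averaged 14.11 in bdg, 14.30 in fdh, 14.20 in lcr and 14.24 in WT. The labels could not be checked on BDG, FDH and LCR themselves, which lacked a named probe set. In RNA of whole leaves, fewer cells of a type and less RNA per cell cannot be told apart. The study notes WT array 2 and bdg array 1 as having slightly disturbed 3′ to 5′ ratios, and the difference between 3′ and 5′ actin probe sets was largest on these arrays, at 2.36 on bdg array 1 and 2.07 on WT array 2 (log2), against 0.333 to 1.76 on the other 10.

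Each mutant was set against WT by Rank Product, the method of the study, which calls a gene at an estimated proportion of false positives (pfp) under 0.05. By this test the members higher than in WT numbered 6 in bdg, 7 in fdh and 6 in lcr, where 0.506%, 1.68% and 0.989% of all probe sets were called higher in bdg, fdh and lcr. 0 were lower, where 0.0352%, 0.202% and 0.114% of all probe sets were lower in bdg, fdh and lcr. PAD3 was the member that was called in fdh alone. Without WT array 2 and bdg array 1 the number was 4 in bdg, where ATTI1 (pfp = 0.239) and SS3 (pfp = 0.15) were lost, 7 in fdh and 6 in lcr. The median log2 fold change of the 7 members was 2.23 in bdg, 3.42 in fdh and 3.41 in lcr, while the median over all probe sets was -0.01, -0.01 and 0.00 in the same order. The study listed all 7 genes among those raised on these same arrays, and 5 of them were named here only through that list, so that their being higher is not independent evidence. All members but PAD3 are described in the study's survey of genes changed in common in its mutants. That 6 members were raised in every mutant and PAD3 was not therefore follows in part from the choice. For 6 members every mutant array lay above every WT array, as it did for 1.45% of all probe sets.

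limma, which estimates one spread from all 12 arrays and adjusts its p over all probe sets, called fewer members. At an adjusted p under 0.05 it called 0 members higher in bdg, 7 in fdh and 4 in lcr, against 0.0923%, 1.53% and 0.339% of all probe sets. At an unadjusted p under 0.05 it gave 6 members in bdg, against 4.22% of all probe sets. Each test called all 7 in fdh. They parted over bdg and over lcr, where limma did not call ATTI1 and At2g43620. In models of only the 2 genotypes compared limma called 2 members in fdh, ELI3 and SS3, and 0 in lcr, whereas the fold changes were the same.

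**Figure D1:**
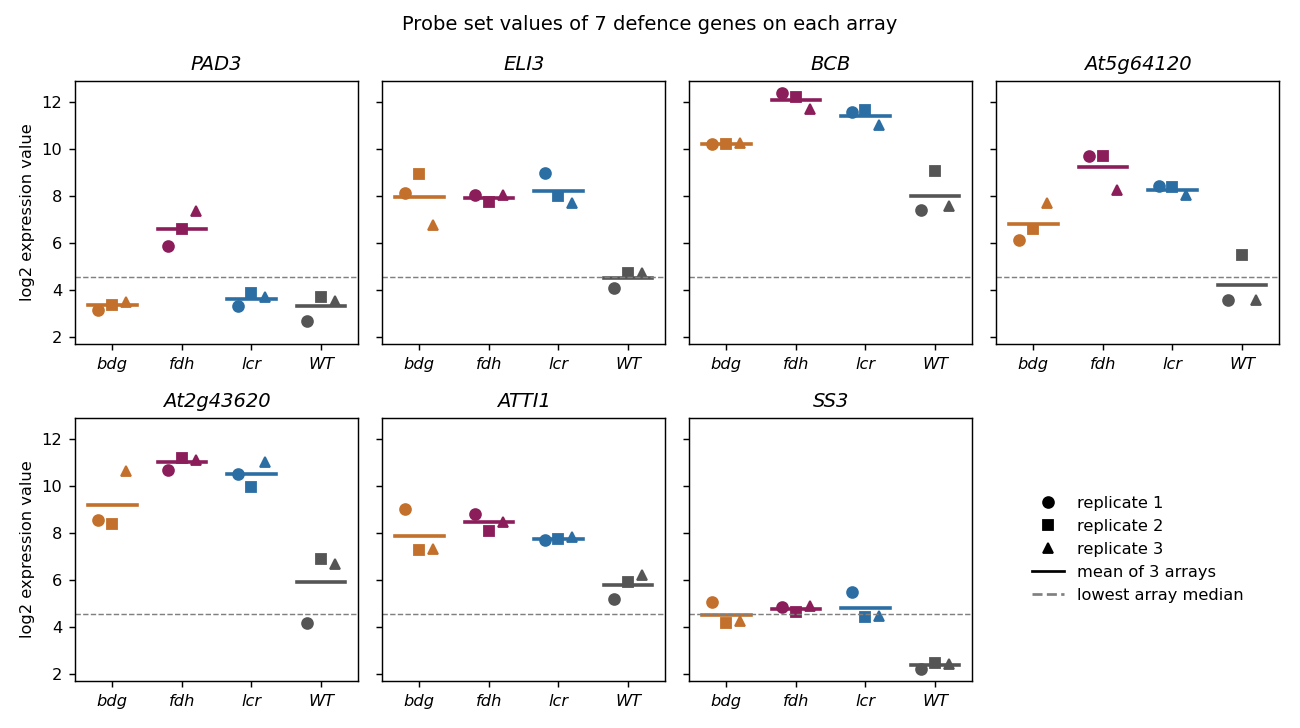
Log2 expression value (vertical axis) of each of the 7 genes on every array, by genotype (bdg, fdh, lcr, WT from left to right). Symbols give replicates 1 to 3, solid lines the mean of 3 arrays, and the dashed line the lowest array median of 4.56. Apart from PAD3, all mutant arrays lie above all WT arrays, and PAD3 is above them in fdh alone.

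PAD3, the camalexin enzyme, was high in fdh and at the WT level in the other mutants. Its values were 3.16, 3.38 and 3.48 on the bdg arrays, 5.87, 6.60 and 7.38 on the fdh arrays, 3.31, 3.87 and 3.70 on the lcr arrays and 2.66, 3.70 and 3.54 on the WT arrays. All 3 fdh arrays stood more than 1 unit above every other array, while those of bdg, lcr and WT overlapped and lay under the lowest array median. In fdh it averaged 6.62 ± 0.76, against 3.30 ± 0.56 in WT (SD, n = 3 each), a 9.96-fold difference (log2 fold change 3.32, SE 0.39, limma adjusted p = 0.0054, pfp = 0.0058). This fold rests on a WT level that was not shown to be above background. Against WT, PAD3 differed by 0.04 in bdg (95% interval -0.83 to 0.91) and 0.33 in lcr (-0.54 to 1.20), each with a limma adjusted p of 1. The Rank Product call in fdh ended without fdh array 3, the highest (pfp = 0.0689), while limma still called it (log2 fold change 2.94). In a model of fdh and WT alone limma did not call PAD3 (adjusted p = 0.0995).

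ELI3 was raised to a like level in all mutants. It measured 8.14, 8.96 and 6.76 in bdg, 8.04, 7.74 and 8.04 in fdh and 8.98, 8.01 and 7.69 in lcr, against 4.09, 4.73 and 4.72 in WT. The lowest mutant array, bdg array 3, still lay 2.02 above the highest WT array. The WT mean, 4.51, was under the lowest array median, and the fold changes rest on it. Log2 fold changes of ELI3 were 3.44 in bdg (pfp = 0.001), 3.42 in fdh (pfp = 0.00474) and 3.71 in lcr (pfp = 0.00103), with an SE of 0.53 in each. In limma the adjusted p was 0.0698 in bdg, 0.0168 in fdh and 0.0268 in lcr. The bdg arrays were spread over 2.20 units, and without bdg array 3 the adjusted p in bdg was 0.0195 (log2 fold change 4.04). The limma call in fdh ended without WT array 1 (0.0631), fdh array 1 (0.0745) or fdh array 2 (0.0602), and without WT array 2 and bdg array 1 together (0.0596). That in lcr ended without the same pair (0.083) and without WT array 1 (0.0936), 2 (0.0593) or 3 (0.066), fdh array 1 (0.0561) or 2 (0.0604), or lcr array 1 (0.0889) or 2 (0.106), and in all of these the log2 fold change stayed between 3.21 and 3.82.

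BCB, the blue copper protein, gave a graded order of genotypes. On bdg arrays it read 10.21, 10.23 and 10.27, on fdh arrays 12.39, 12.20 and 11.69, on lcr arrays 11.58, 11.65 and 11.03, and on WT arrays 7.39, 9.06 and 7.57. No genotypes overlapped, and the order from high to low was fdh, lcr, bdg and WT, although the lowest fdh array was only 0.04 above the highest lcr array. BCB averaged 10.24 ± 0.03 in bdg, 12.09 ± 0.36 in fdh and 11.42 ± 0.34 in lcr, against 8.01 ± 0.92 in WT (SD, n = 3 each). Against WT the log2 fold change was 2.23 in bdg (pfp = 0.013), 4.09 in fdh (pfp = 0.000909) and 3.41 in lcr (pfp = 0.0019), with an SE of 0.40. limma gave an adjusted p of 0.135 in bdg, 0.00365 in fdh and 0.0168 in lcr.

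WT array 2, one of the arrays with disturbed ratios, was the highest of the WT arrays for BCB by 1.49. Without it limma called BCB in bdg as well (log2 fold change 2.75, adjusted p = 0.00624). The lcr call was lost without lcr array 1 (0.0671) or lcr array 2 (0.076). The Rank Product call in bdg was lost without WT array 1 (pfp = 0.0516), bdg array 1 (0.11), bdg array 2 (0.104) or bdg array 3 (0.0836).

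The peroxidase At5g64120 followed the order of BCB. It read 6.15, 6.58 and 7.69 in bdg, 9.70, 9.70 and 8.26 in fdh and 8.41, 8.38 and 8.03 in lcr, against 3.57, 5.47 and 3.56 in WT. The highest WT array was again array 2, which came within 0.68 of the lowest bdg array. Its log2 fold change was 2.60 in bdg (pfp = 0.0058), 5.02 in fdh (pfp = 0.000833) and 4.07 in lcr (pfp = 0.000526), SE 0.62. These are 6.08-fold, 32.4-fold and 16.8-fold differences in bdg, fdh and lcr, from a WT mean of 4.20 that is under the lowest array median. Without WT array 2 the log2 values were 3.24 in bdg, 5.66 in fdh and 4.71 in lcr. With all arrays the limma adjusted p was 0.377 in bdg, 0.00711 in fdh and 0.0345 in lcr. The lcr call was ended by leaving out WT array 1 (0.113) or 3 (0.0836), bdg array 2 (0.0618), fdh array 1 (0.062) or 2 (0.0676), or lcr array 1 (0.136), 2 (0.144) or 3 (0.0738). A replicate block in the model also ended the lcr call (0.0511). Without bdg array 3 the Rank Product call in bdg ended too (log2 fold change 2.16, pfp = 0.11).

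Chitinases cut the chitin of fungal walls. At2g43620, a chitinase gene, was raised in all mutants by Rank Product. On bdg arrays its values were 8.56, 8.36 and 10.65, on fdh arrays 10.69, 11.17 and 11.12, on lcr arrays 10.51, 9.96 and 11.01, and on WT arrays 4.15, 6.89 and 6.65. Every mutant array exceeded every WT array by at least 1.47, but WT array 1 lay 2.50 under the next WT array and bdg array 3 reached the level of lcr. For At2g43620 the log2 fold change was 3.29 in bdg (pfp = 0.002), 5.10 in fdh (pfp = 0.000769) and 4.60 in lcr (pfp = 0.000769), with the widest SE among the members, 0.80. Without WT array 1 these values were 2.42 in bdg, 4.22 in fdh and 3.72 in lcr. In limma the adjusted p was 0.381 in bdg, 0.0174 in fdh and 0.0563 in lcr. The fdh call ended without fdh array 1 (0.068) or fdh array 2 (0.0714), lcr was called without bdg array 3 (0.0445), and the Rank Product call in bdg ended without bdg array 3 (log2 fold change 2.56, pfp = 0.0612).

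ATTI1, the trypsin inhibitor, was raised by a smaller amount. It read 9.03, 7.26 and 7.29 in bdg, 8.78, 8.06 and 8.48 in fdh and 7.71, 7.73 and 7.81 in lcr, against 5.19, 5.90 and 6.19 in WT. The genotypes did not overlap with WT, and the gap to the highest WT array was 1.07 for bdg, 1.87 for fdh and 1.52 for lcr. The log2 fold change was 2.10 in bdg (pfp = 0.0201), 2.68 in fdh (pfp = 0.0137) and 1.99 in lcr (pfp = 0.0248), with an SE of 0.46. limma called it in fdh (adjusted p = 0.0243) and not in bdg (0.293) or lcr (0.16). The highest value of all was bdg array 1, the array with the largest actin 3′ to 5′ difference, and without it the bdg log2 fold change was 1.51 (pfp = 0.286) and limma called lcr (adjusted p = 0.0322).

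The calls of ATTI1 were easily lost. Rank Product lost it in each mutant when any 1 array of that mutant was left out, with pfp values of 0.286, 0.0935 and 0.0712 without bdg arrays 1, 2 and 3, of 0.0985, 0.0761 and 0.089 without fdh arrays 1, 2 and 3, and of 0.146, 0.142 and 0.142 without lcr arrays 1, 2 and 3. Leaving out WT array 1 ended the calls in bdg (0.0674) and lcr (0.0726). The limma call in fdh ended without WT array 1 (adjusted p = 0.0817), WT array 2 (0.0658), fdh array 1 (0.112) or fdh array 2 (0.0684). The log2 fold change stayed between 1.51 and 2.87 in all of these.

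SS3 was raised by a like amount in all mutants, with small errors. Its values were 5.04, 4.16 and 4.24 in bdg, 4.82, 4.63 and 4.86 in fdh and 5.48, 4.40 and 4.45 in lcr, against 2.20, 2.45 and 2.39 in WT. WT arrays were all near the floor of the array, and several mutant arrays were also under 4.56, so the size of the change is less certain than its direction. The log2 fold change was 2.13 in bdg (pfp = 0.011), 2.42 in fdh (pfp = 0.0181) and 2.43 in lcr (pfp = 0.012), SE 0.31, with limma adjusted p values of 0.0613 in bdg, 0.00837 in fdh and 0.0201 in lcr. In bdg, lcr and WT the array with the largest actin 3′ to 5′ difference also had the highest SS3 value, which did not hold in fdh. The part of RNA quality in these levels was not tested.

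For SS3, too, Rank Product called no mutant when 1 of its arrays was left out. The pfp was 0.144, 0.0782 and 0.0661 without bdg arrays 1, 2 and 3, 0.109, 0.107 and 0.12 without fdh arrays 1, 2 and 3, and 0.136, 0.0679 and 0.0678 without lcr arrays 1, 2 and 3. limma kept SS3 in fdh whichever array was left out, lost it in lcr without WT array 1 (0.0633), WT array 3 (0.0507) or lcr array 2 (0.0626), and gained it in bdg without lcr array 1 (0.0209).

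**Figure D2:**
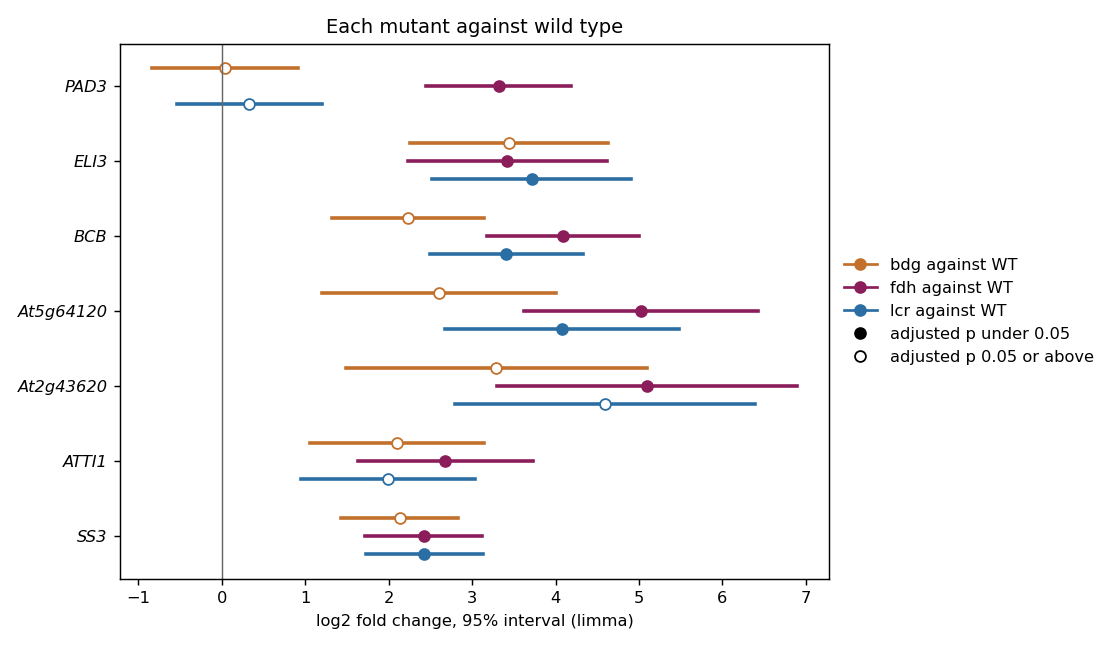
Log2 fold change against WT (horizontal axis) of the 7 genes in bdg, fdh and lcr, with the 95% interval from limma over all 12 arrays. Filled points have an adjusted p under 0.05, as 0 do in bdg, all 7 in fdh and 4 in lcr. Only the bdg and lcr intervals of PAD3 include 0.

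The mutants were then compared with each other in limma to ask which genes respond unequally. PAD3 was the only member with a difference past the threshold. It was higher by 3.28 in fdh than in bdg (95% interval 2.41 to 4.15, adjusted p = 0.0166) and higher by 2.99 in fdh than in lcr (2.12 to 3.86, adjusted p = 0.0413). Of all probe sets, 0.761% differed in fdh from bdg and 0.0879% in fdh from lcr. In lcr over bdg the share was 0.00440%, and 0 members were called, though 2 had an unadjusted p under 0.05, as did 3.10% of all probe sets. The difference from bdg lost its call without bdg array 1 (0.059), 2 (0.06) or 3 (0.0514). The difference from lcr lost it without WT array 2 (0.0685) or 3 (0.0524), bdg array 1 (0.0546), 2 (0.0822) or 3 (0.0734), fdh array 2 (0.105), or lcr array 1 (0.16), 2 (0.0991) or 3 (0.0874). Without WT array 2 and bdg array 1 together it was 0.0563 for bdg and 0.0753 for lcr, and the fold change was at least 2.83 on the log2 scale in every one of these.

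BCB, At5g64120 and At2g43620 had means that fell in the order fdh, lcr and bdg, but the steps between mutants did not pass the threshold. In fdh over bdg the log2 difference was 1.86 for BCB (95% interval 0.94 to 2.77, adjusted p = 0.0779), 2.42 for At5g64120 (1.01 to 3.82, adjusted p = 0.12) and 1.80 for At2g43620 (0.01 to 3.60, adjusted p = 0.387). BCB passed without WT array 2 (adjusted p = 0.0197). In lcr over bdg the difference was 1.18 for BCB and 1.47 for At5g64120 (adjusted p = 1 for both), and in fdh over lcr it was 0.67 for BCB (-0.24 to 1.59) and 0.95 for At5g64120 (-0.45 to 2.35).

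ELI3, SS3 and ATTI1 had small differences between mutants with wide intervals. In fdh over bdg the log2 difference was -0.02 for ELI3 (-1.21 to 1.17), 0.29 for SS3 (-0.41 to 0.99) and 0.58 for ATTI1 (-0.46 to 1.62). In fdh over lcr it was -0.29 for ELI3 (-1.48 to 0.90), 0.00 for SS3 (-0.70 to 0.70) and 0.69 for ATTI1 (-0.36 to 1.73). For ELI3 the interval of fdh over bdg leaves room for differences of more than 1 unit either way. That of fdh over lcr leaves room for more than 1 unit lower in fdh. Every fdh array lay above every bdg array for 4 members (8.76% of all probe sets), every fdh array above every lcr array for 3 (5.39%) and every lcr array above every bdg array for 2 (2.82%).

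**Figure D3:**
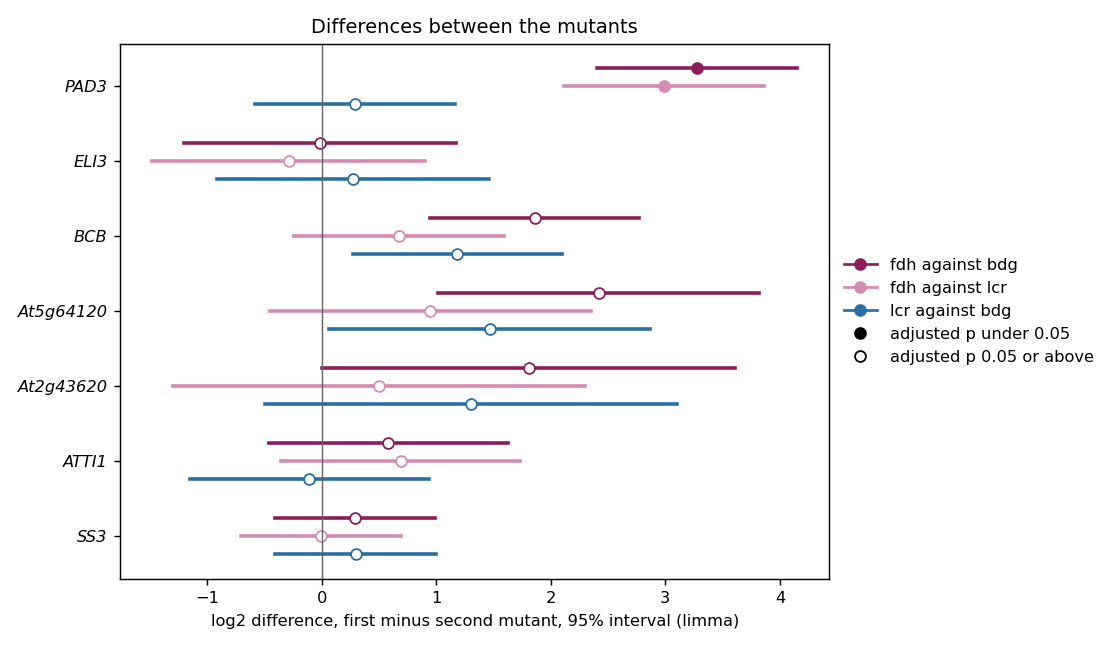
Log2 difference between mutants (horizontal axis, first minus second mutant) for the 7 genes, with the 95% interval from limma. Filled points have an adjusted p under 0.05. PAD3 is the only gene with filled points, at 3.28 for fdh over bdg and 2.99 for fdh over lcr.

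The members moved to different degrees with one another over the 12 arrays. BCB and At5g64120 were the closest pair of 21 (Pearson r = 0.982), and after subtracting genotype means their r was 0.826. WT array 2 lay furthest above its genotype mean for both, by 1.05 for BCB and 1.27 for At5g64120. The part of this array in the r of 0.826 was not tested. ELI3 and SS3 had an r of 0.937 that was 0.453 after the subtraction, and PAD3 and ELI3 only 0.312. Such values are descriptions, since the arrays share 4 genotypes that set most of the correlation.

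Genes with a like pattern were found by Pearson r over the same 12 arrays among all probe sets with 1 gene name. Of these probe sets 235 had a name only through the study's list of genes raised on these arrays, which favours raised genes. NRT1.8, AOC3, TPS11, SQE6, EXT4, ABCG1 and BSK6, given below, were named only in that way. For PAD3 they were At2g27310 (r = 0.987) and At1g10140 (r = 0.972), whose means, at most 4.14, were under the lowest array median in every genotype, fdh included. For ELI3 they were At1g48750 (r = 0.976), which limma called in each mutant (adjusted p = 0.0181 in bdg, 0.00442 in fdh and 0.0148 in lcr). Next came the nitrate transporter gene NRT1.8 (r = 0.964). BCB was followed by At5g35735 (r = 0.974) and At2g18690 (r = 0.971).

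The peroxidase At5g64120 was followed by At5g37740 (r = 0.965) and by AOC3 (r = 0.961), an allene oxide cyclase of jasmonate synthesis. For the chitinase At2g43620 they were TPS11 (r = 0.953), of the trehalose phosphate synthase family, and At5g47330 (r = 0.944), with a log2 fold change of 4.91 in bdg, 5.37 in fdh and 5.40 in lcr. ATTI1 was followed by SQE6 (r = 0.969), a squalene epoxidase gene, and the extensin gene EXT4 (r = 0.945). SS3 was followed by the transporter gene ABCG1 (r = 0.967), with log2 fold changes of 4.60, 5.40 and 4.99 in bdg, fdh and lcr, and by BSK6 (r = 0.951), a gene of the brassinosteroid signalling kinase family.

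Several members lie in rows of related genes, so the 5 genes on each side of each member were read as well. Of these 70 genes, 38 had a named probe set, and limma called 0 of their 39 probe sets in bdg, 2 in fdh and 0 in lcr. At an unadjusted p under 0.05 there were 3 in bdg, 9 in fdh and 7 in lcr, where 4.22%, 14.9% and 7.91% of all probe sets lay there. Rank Product called 0, 4 and 2 higher in bdg, fdh and lcr, where it called 0.506%, 1.68% and 0.989% of all probe sets. Names taken only from the study's list of raised genes, as for TI2 beside ATTI1, favour raised genes in these counts. The median log2 fold change of the neighbours was -0.01 in bdg, -0.01 in fdh and 0.01 in lcr. Many of the neighbours averaged under the lowest array median in every genotype, so this median does not show whether they responded. The 2 that passed in fdh were CHI (At2g43570), a chitinase gene 5 genes from At2g43620, at 4.05 (SE 0.74, adjusted p = 0.0305), and At1g74010, next to SS3, at 2.22 (SE 0.41, adjusted p = 0.0329). The WT means of CHI (3.85) and At1g74010 (4.11) were under the lowest array median, and these fold changes rest on them.

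Between CHI and At2g43620 only At2g43590 averaged above the lowest array median, so the other genes there do not show whether they responded. At2g43590 had a high level of 8.26 in WT and a log2 fold change of 1.96 in fdh (adjusted p = 0.0724), while At2g43580, At2g43600 and At2g43610 averaged 1.87 to 2.43 in WT and moved by less than 0.30 in any mutant. The genes beside the peroxidase, At5g64100 and At5g64110, averaged 2.17 and 2.31 in WT, and At5g64110 had a log2 fold change of 1.45 in fdh (SE 0.50, adjusted p = 0.202). TI2 (At2g43520), the trypsin inhibitor gene next to ATTI1, had log2 fold changes of 0.50 in bdg, 1.13 in fdh and 1.60 in lcr (adjusted p = 1, 0.142 and 0.119), from a WT mean of 7.10. Near-identical copies can share probes, and the probe sequences were not used here.

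**Figure D4:**
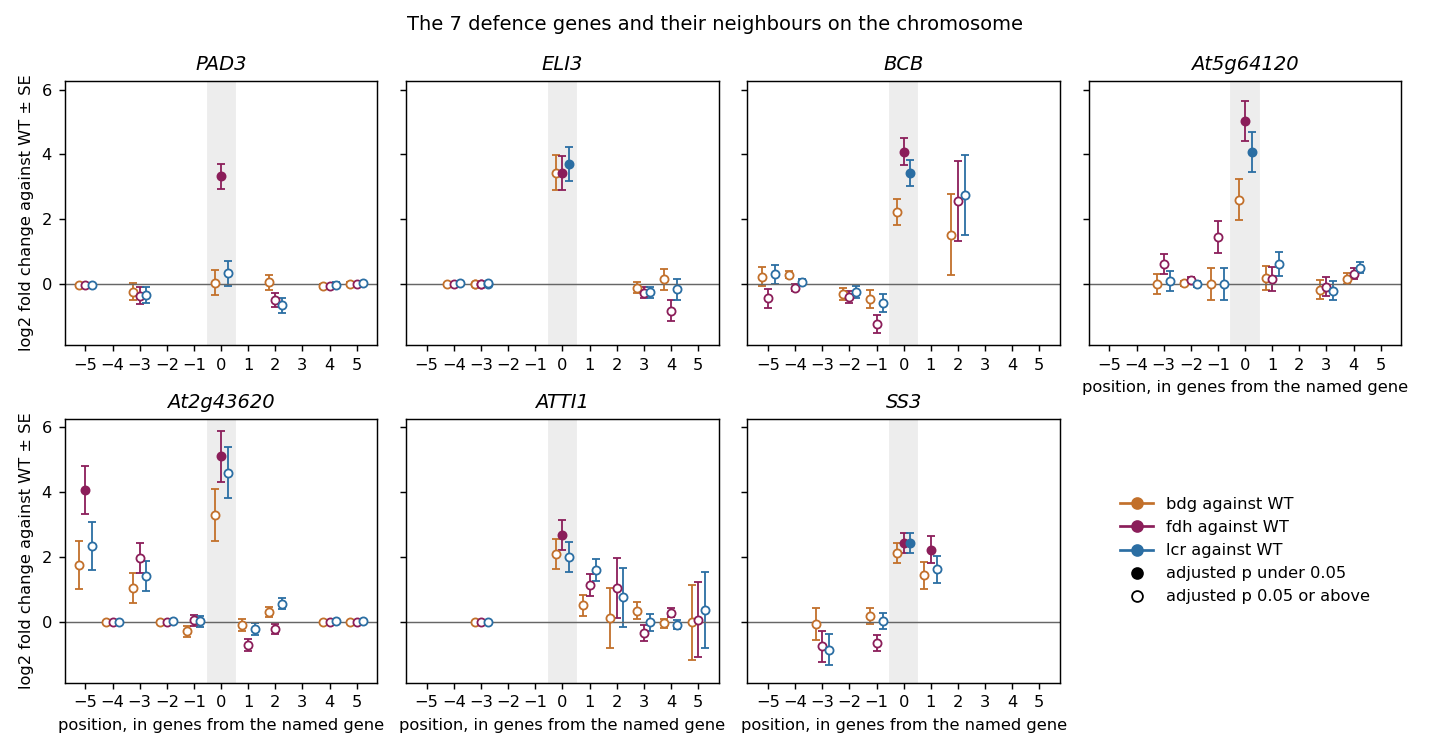
Log2 fold change against WT with its SE from limma (vertical axis) for the 7 genes (shaded, position 0) and those of their neighbours with a named probe set, by the number of genes from the named gene (horizontal axis). Filled points have an adjusted p under 0.05. Among the 39 neighbouring probe sets only CHI, at position -5 from At2g43620, and At1g74010, at position 1 from SS3, are filled, both in fdh.

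The hormone branches of defence were read for comparison, through lists of genes of which only part had a named probe set. Most were named only through the list of genes that the study found raised on these arrays, so their being higher is not independent evidence. In the jasmonate and ethylene branch 9 of 25 genes were read, and limma called 0 of them in bdg, 3 in fdh and 1 in lcr, all higher, against 0, 5 and 6 by Rank Product. The genes called by limma were AOC3, at 3.20 in fdh (adjusted p = 0.0107) and 2.87 in lcr (0.0345), and the jasmonate repressor genes JAZ1, at 2.75 in fdh (0.0422), and JAZ7, at 1.76 in fdh (0.0311). JAZ7 averaged 4.15 in fdh and 2.39 in WT, both under the lowest array median, and Rank Product did not call it in fdh (pfp = 0.0709). The median log2 fold change of the 9 was 0.50 in bdg, 2.69 in fdh and 1.98 in lcr. The defensin genes PDF1.2 and PDF1.2b, which respond to jasmonate and ethylene together, did not pass, with log2 fold changes of 1.08 and 1.72 in fdh and -1.10 and -0.70 in lcr. Of the 9 genes only these were named by the platform annotation, so the calls and the median follow in part from the naming.

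The salicylic acid branch, with 4 of 16 genes read, had 0 calls by limma in any mutant, and 2 genes had an unadjusted p under 0.05, both in fdh. Its median log2 fold change was 0.62 in bdg, 2.31 in fdh and 0.88 in lcr. Rank Product called 3 of the 4 in fdh. They were the glucanase gene BGL2 at 3.88 (pfp = 0.001, limma adjusted p = 0.0787), the salicylic acid transporter gene EDS5 at 2.43 (pfp = 0.0169) and the pathogenesis-related gene PR1 at 2.19 (pfp = 0.0351). None was called in bdg or lcr. The WT means of BGL2 (4.51), EDS5 (3.63) and PR1 (4.33) were under the lowest array median. BGL2, EDS5 and PR1 were named only through the study's list of raised genes, so the calls and the median in fdh follow in part from the naming. SAG101, the gene named by the platform annotation, was not called in fdh (log2 fold change 1.245, pfp = 0.22).

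**Figure D5:**
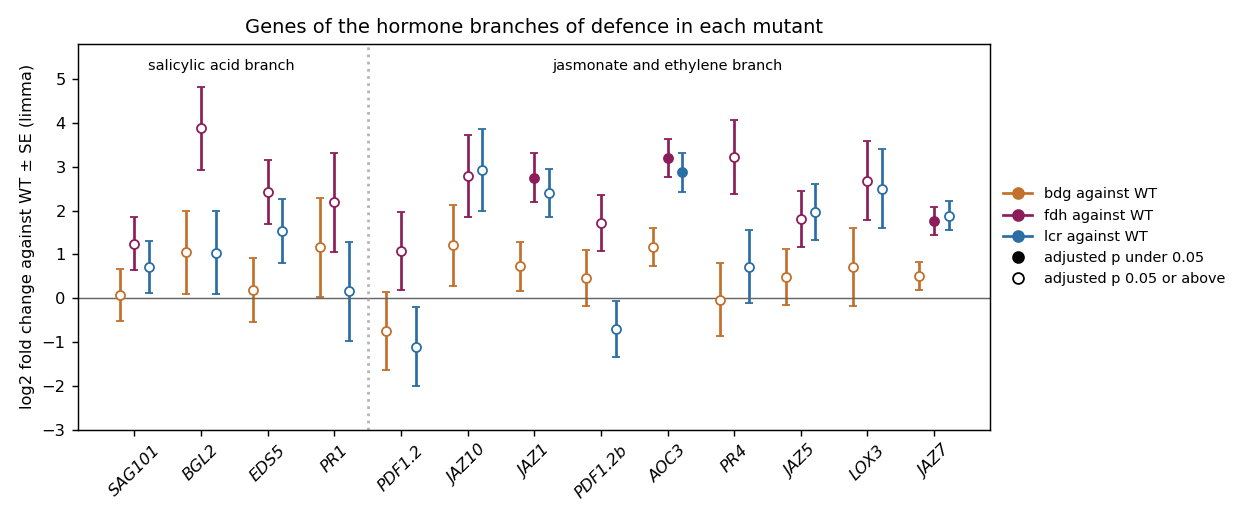
Log2 fold change against WT with its SE from limma (vertical axis) for the 4 salicylic acid genes and the 9 jasmonate and ethylene genes with a named probe set, in bdg, fdh and lcr. Filled points have an adjusted p under 0.05, and these are AOC3 in fdh and lcr and JAZ1 and JAZ7 in fdh.

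The families of the members were read in the same way. PAD3 was the only 1 of 14 genes of the camalexin and tryptophan route with a named probe set. Of 17 class III peroxidases found by name 7 were read. Besides At5g64120 limma called PRX52 in fdh, at 2.75 (adjusted p = 0.0243), with values of 2.52 in bdg (pfp = 0.00488, adjusted p = 0.161) and 1.34 in lcr. The WT mean of PRX52, 2.08, was under the lowest array median. The median of the 7 was 0.00 in bdg, 0.47 in fdh and 0.01 in lcr. Of the 7, At5g66390, At3g50990, Prx37 and At2g41480 lay under the lowest array median on all arrays. The median therefore does not show whether the family responded. Among chitinases found by name, 3 of 7 were read, and limma called CHI in fdh. Rank Product called 2 of them, CHI and EP3, in fdh (pfp = 0.00107 and 0.0119) and in lcr (pfp = 0.0171 and 0.043). The blue copper protein gene ARPN had a log2 fold change of 2.00 in fdh (adjusted p = 0.0664). Of 10 trypsin inhibitor and defensin-like genes 6 were read and only ATTI1 passed. The monolignol route, which makes lignin precursors, had 2 of 14 genes read, HCT and CCR2, and neither passed, with CCR2 at 1.70 in fdh (adjusted p = 0.152).

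Markers of other states of the leaf were set beside the members. Of 5 senescence markers 3 were read, each named only through the study's list of genes raised on these arrays, so that their being higher followed from how they were named. SAG13 was higher by 3.23 in fdh (limma adjusted p = 0.0201), SEN1 by 2.29 (0.154) and NAP by 2.38 (0.129), and Rank Product called all 3 there (pfp = 0.00656 for SAG13, 0.0325 for SEN1 and 0.031 for NAP). In bdg their log2 fold changes were 1.88 for SAG13 (pfp = 0.0336), -0.02 for SEN1 and -0.28 for NAP, and in lcr 1.61, 1.82 and 0.91, with no call in lcr by either test. BCB is itself also known as the senescence-associated gene SAG14. The part of leaf age or senescence in the levels of the members was not tested. The trichome regulator TRY had a log2 fold change of -1.79 in fdh (adjusted p = 0.129), and the guard cell regulator FMA one of 0.13 (adjusted p = 1). None of the 6 floral or 4 epidermal markers had a named probe set.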

How the data were processed

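RNA of young rosette leaves was hybridised to ATH1 arrays, 3 for each of 4 genotypes. The authors deposited 1 log2 value for each probe set and array, summarised by GCRMA according to the submitters' processing notes, and pooled no replicates. The version of GCRMA is not given in the sources used here. Of 22810 probe sets 64 controls were left out, and no low values were filtered. Names came from the platform annotation (13513 probe sets had a single gene, and 503 with more were left unnamed) and for 235 more from the study's list of upregulated genes; PAD3, ELI3, BCB, ATTI1 and SS3 rest on that list. RefSeq (TAIR10.1) gave symbols, families and neighbours. No sequences or coordinates were used, and arrays give no read depth, so that their number limits the precision.

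Rank Product was rewritten in Python 3.11.15 from its description (9 ratios, 100 permutations, pfp under 0.05), and limma 3.58.1 ran in R 4.3.3 with all 12 arrays in 1 model, no replicate block, and Benjamini-Hochberg adjustment over 22746 probe sets. Both were tested on simulated data. The named genes were the 7 members, the 2 probe sets most like each, and genes past the limma threshold in fixed lists, at most 3 a list and mutant; neighbours and the other genes given with values were chosen after values were seen. Members and lists were chosen with earlier results of these data known. Results were recomputed with a second quantile normalization, a filter on low values, a variance trend, models of 2 genotypes, a replicate block, a stricter pfp, and arrays left out. That list gives loci and probe sets apart, and its fold changes and pfp values served only as a key to join them. For 200 probe sets named by both sources, the locus was the same in 200.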

Additional observations from a re-analysis of the deposited data

Results flagged for a closer look

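PAD3 stood out for a response that differed between mutants. Its log2 level was higher by 3.28 in fdh than in bdg (SE 0.39, limma adjusted p = 0.0166) and by 2.99 in fdh than in lcr (SE 0.39, adjusted p = 0.0413), and all 3 fdh arrays lay above all 9 others. The other 6 members had no difference between mutants past the threshold. Those 6 are in the study's survey of genes changed in all mutants on these arrays. That PAD3 stood apart from them therefore follows in part from the choice.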

How the results depend on the processing

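No alternative turned the direction of a called value. For single genes and comparisons, 677 of the recomputed values kept their side of the threshold, 57 lost the call and 16 gained it. Members higher in bdg by Rank Product numbered 6, 3 at a pfp under 0.01 and 1 to 6 with 1 array left out. Those in fdh numbered 7 and 4 to 7 with 1 array left out, and those in lcr 6 and 4 to 6. By limma 0 members were called in bdg, 2 with the filter on low values (which removed SS3) or with the variance trend, 1 without WT array 2 and bdg array 1, and 0 to 1 with 1 array left out. In fdh the count was 7, 2 in models of the 2 genotypes and 4 to 7 with 1 array left out. In lcr it was 4, 0 in models of the 2 genotypes and 0 to 5 with 1 array left out. Between fdh and bdg it was 1, 3 with the filter, 0 in models of the 2 genotypes, 0 without WT array 2 and bdg array 1, and 0 to 2 with 1 array left out. Between fdh and lcr it was 1, 0 in models of the 2 genotypes, 0 without the same 2 arrays, and 0 to 1 with 1 array left out. Models of 2 genotypes hold 6 arrays in place of 12. The cause of the changes in these counts was not tested.

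Replicate numbers were not treated as pairs, since the labels give only a number for each biological replicate. Same-numbered arrays were nevertheless more alike by the median. Their deviations correlated at -0.356 to 0.725 over 18 pairs, with 14 over 0.1 and a median of 0.322. For other pairs the median was -0.228, with 9 of 36 over 0.1. On average 7 of 12 arrays correlated best with their own number. What arrays of the same number share was not tested. With a replicate block limma still called 0 members in bdg, 7 in fdh and 4 in lcr, where At5g64120 lost its call (adjusted p = 0.0511) and At2g43620 gained one (0.0419). The block left the counts between mutants at 1, 1 and 0, and Rank Product over the 3 same-numbered ratios at 6, 7 and 6. WT means under 4.56 limit how well the fold changes of PAD3, ELI3, At5g64120 and SS3 are known. The same limit holds for other genes given above, among them CHI, At1g74010, PRX52, SAG13, SEN1, EDS5, PR1 and BGL2.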
